A study of Mus musculus with 15 samples.

Results

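The 36 genes described here encode the proteins that let calcium into neurons, release it from internal stores and pass the signal on. They are 9 pore-forming subunits of voltage-gated calcium channels (Cacna1 genes), 4 alpha2delta subunits (Cacna2d genes), 4 beta subunits (Cacnb genes), 8 gamma subunits and related AMPA receptor auxiliary proteins (Cacng genes), 3 ryanodine receptors (Ryr genes), 3 IP3 receptors (Itpr genes) and 5 calcium/calmodulin-dependent kinases (4 Camk2 genes and Camk4). The genes were taken by name, and their measurements were the CpG positions inside the gene or within 2 kb of either boundary. This gave 1457 of the 455836 CpG positions in the deposited table, each counted on its own strand. Every one of the 36 genes had CpG positions, from 7 in Cacng5 to 132 in Cacna1c with a median of 31.5, and they belong to 16672 protein-coding genes with at least 1 position.

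Cytosine methylation came from reduced representation bisulfite sequencing, which reads the CpG-rich fragments of a restriction digest after bisulfite treatment. The tissue was the micro-dissected dentate gyrus, the part of the hippocampus where granule neurons are born throughout life, of 15 female C57BL/6JRj mice aged 7.5 months. Each of 3 groups held 5 mice. The standard group lived in standard cages for 6 months, the enriched group lived in an enriched environment for 6 months, and the group called withdrawal here spent 3 months in enrichment and then 3 months in standard cages. No genotype, drug or transgene separates the groups. The comparisons ask how the groups differed after enrichment and 3 months after it had ended. The values are percentages without read counts, so depth is unknown. Only the number of positions with a value can be given. Of the 1457 CpG positions, 930 to 1341 had a value in a standard mouse (1199 ± 158, SD, n = 5), 1046 to 1326 in an enriched mouse (1194 ± 130, n = 5) and 1196 to 1414 in a withdrawal mouse (1302 ± 78.7, n = 5). The lowest of the 15 numbers belonged to standard mouse 1, in which 36.2% of the positions were missing. Withdrawal mice had 102.6 more positions than standard mice (two-sided exact permutation p = 0.254, adjusted over 3 comparisons 0.381) and 107.6 more than enriched mice (exact permutation p = 0.198, adjusted 0.381), and enriched mice had 5 fewer than standard mice (exact permutation p = 0.968, adjusted 0.968). A value in all 15 mice was available for 298 of the 1457 positions, in 35 of the 36 genes, and Cacnb1 had none. Among marker genes of dentate cell types, the granule neuron genes Prox1, Neurod1, Dsp and C1ql2 had mean methylation of 0.559% to 3.47% within 2 kb of their boundaries. The interneuron genes Gad1 and Gad2 were at 5.01% and 4.83%, and the pyramidal neuron genes Fibcd1 and Neurod6 at 6.24% and 40.8%. Of the other cell types, Slc1a3, Olig2, Mbp and Cldn5 were between 1.22% and 6.29%, and Aif1, Tmem119 and Pecam1 at 95.7%, 87.7% and 71.5%.

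Voltage-gated calcium channels open when the membrane depolarises. The pore subunit sets the channel type, while alpha2delta and beta subunits control how many channels reach the membrane and how they gate. Ryanodine and IP3 receptors are the release channels of the endoplasmic reticulum, and calcium bound to calmodulin activates the CaM kinases that adjust synapses and gene expression. CpG-rich promoters of active genes are usually free of methylation in vertebrates, whereas gene bodies and intergenic CpGs are usually methylated.

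The letters of the promoters show where the measured CpGs lie. RefSeq promoter windows (assembly GRCm38.p6, the same coordinates as mm10) were found for 25 of the 36 genes, in 34 windows. The 250 bases before each listed start held a median of 15 CG dinucleotides in these windows and of 6 over all 32851 listed windows. The observed number of CG was 0.671 of the number that base composition gives, and 0.373 over all windows. At least 1 copy of CCGG (searched as those 4 letters, which read the same on both strands, and are the site of MspI, the enzyme usual for this method) stood in 55.9% of the windows and in 47.1% of all windows. A measured CpG position fell in 8 of the 34 windows (23.5%; 18.1% of all windows). The 4 windows with the most measured positions are printed 5′ to 3′ on the gene's strand, with the measured CpGs in capitals, because they carry the near-absence of methylation at these starts. They are Cacna1b (chr2:24763153-24763402, minus strand), Cacna1d (chr14:30353487-30353736, minus strand), Cacnb3 (chr15:98634517-98634766, plus strand) and Itpr3 (chr17:27057054-27057303, plus strand). Ryr1 (chr7:29125152-29125401, minus strand) is printed for contrast, with all of its 6 CG dinucleotides in capitals, none of which was measured.
Cacna1b: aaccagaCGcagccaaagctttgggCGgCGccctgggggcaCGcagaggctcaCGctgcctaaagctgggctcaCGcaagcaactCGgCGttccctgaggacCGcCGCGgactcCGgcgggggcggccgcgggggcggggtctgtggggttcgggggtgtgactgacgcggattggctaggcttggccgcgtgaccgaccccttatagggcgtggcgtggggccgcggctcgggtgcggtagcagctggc
Cacna1d: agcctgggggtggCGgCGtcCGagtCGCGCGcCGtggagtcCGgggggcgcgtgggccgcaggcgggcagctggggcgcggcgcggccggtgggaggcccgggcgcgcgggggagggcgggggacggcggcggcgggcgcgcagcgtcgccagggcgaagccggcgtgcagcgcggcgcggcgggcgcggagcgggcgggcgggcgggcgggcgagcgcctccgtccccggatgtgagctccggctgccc
Cacnb3: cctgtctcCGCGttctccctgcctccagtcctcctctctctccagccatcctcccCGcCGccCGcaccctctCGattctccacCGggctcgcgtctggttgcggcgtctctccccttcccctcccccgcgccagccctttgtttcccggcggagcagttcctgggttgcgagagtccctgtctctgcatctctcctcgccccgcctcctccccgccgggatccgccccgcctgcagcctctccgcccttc
Itpr3: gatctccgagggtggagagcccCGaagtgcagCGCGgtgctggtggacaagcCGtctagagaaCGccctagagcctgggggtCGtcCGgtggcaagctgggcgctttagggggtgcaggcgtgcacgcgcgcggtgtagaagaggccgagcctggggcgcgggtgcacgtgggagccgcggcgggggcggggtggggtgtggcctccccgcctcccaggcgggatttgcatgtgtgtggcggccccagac
Ryr1: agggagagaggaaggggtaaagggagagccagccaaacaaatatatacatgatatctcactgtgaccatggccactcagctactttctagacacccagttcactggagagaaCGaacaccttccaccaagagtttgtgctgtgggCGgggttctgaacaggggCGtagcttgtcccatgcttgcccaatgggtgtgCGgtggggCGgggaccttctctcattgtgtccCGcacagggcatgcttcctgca
The 13 measured positions before Cacna1b averaged 1.08% over the 15 mice, and its highest position stood at 4.20%. In the Cacna1d window 8 positions averaged 1.15% with a highest of 6.01%. Cacnb3 had 7 positions at 1.93% on average and Itpr3 had 7 at 0.680%. Group means in the Cacna1b window were 1.33% in standard, 0.641% in enriched and 1.24% after withdrawal. Those in the Itpr3 window were 0.621%, 0.974% and 0.461%. The windows differ in base composition as well as in coverage, since Cacna1d has 50 CG in 250 bases and Ryr1 has 6.

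Methylation was low at the ends of the calcium genes and mixed in their bodies. The 378 positions within 2 kb of a boundary averaged 10.2%, and 88.1% of them were under 20%. Over all protein-coding genes the same positions averaged 9.63%, with 88.2% under 20%. In the bodies, more than 2 kb from both boundaries, the 1079 positions averaged 48.3%, and 36.2% were under 20%, 29.8% between 20% and 80%, and 33.9% above 80%. All gene bodies together averaged 49.0%, with 37.7%, 25.4% and 36.9% in the same bands. Of the 28 calcium genes measured at an end and in the body, the end was lower in 23 (82.1%), against 85.8% of all 7970 such genes. The median difference of end and body was -38.7 percentage points in the calcium genes and -48.5 points over all genes. The median body mean was 50.1% over the 36 genes and 69.2% over all genes with body positions. No test was made of these shares, because positions of a gene lie side by side and are not replicates.

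**Figure D1:**
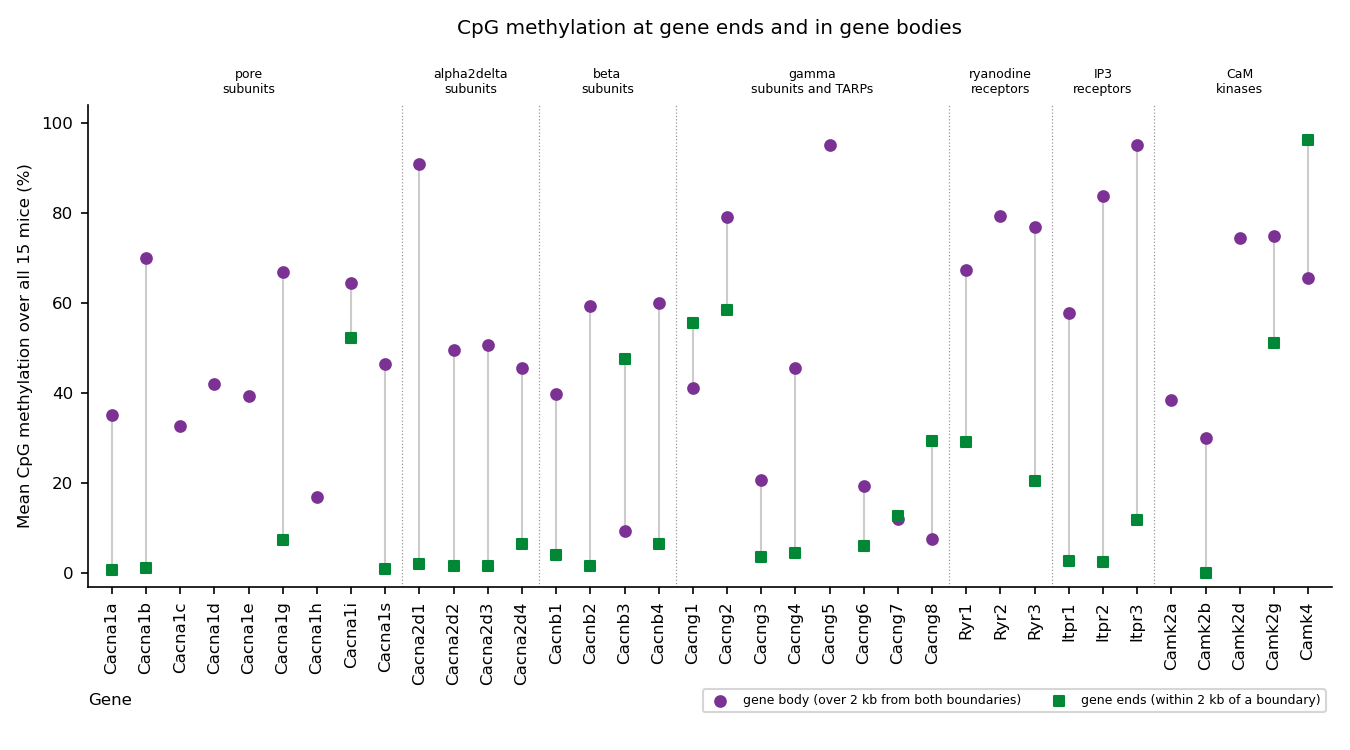
Mean CpG methylation (y axis, percent) of each of the 36 genes (x axis), over all 15 mice and all measured positions, in the body (circles) and within 2 kb of a boundary (squares), joined by a grey line where both were measured. The square lies below the circle in 23 of 28 genes, and Camk4, Cacnb3, Cacng8, Cacng1 and, by a small margin, Cacng7 lie the other way.

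Levels were lowest near a listed transcript start. Within 1 kb of a listed start, 288 positions in 19 calcium genes averaged 2.84%, and 98.3% were under 20%. The same distance over all genes gave 4.76% and 94.5%. From 1 to 5 kb the calcium genes averaged 14.9% (24.2% over all genes), from 5 to 50 kb 51.5% (51.1%), and beyond 50 kb 60.7% (58.5%). In finer steps the means were not in order of distance, with 69.3% over 37 positions of 8 calcium genes at 5 to 10 kb and 55.4% over 352 positions of 18 genes at 50 to 200 kb. Part of the unmethylated gene body lies at internal starts. In 7 genes 103 body positions fell within 1 kb of a listed start and averaged 2.16%, among them 39 in Cacna1c at 1.29%, 17 in Cacna1d at 1.49% and 12 in Cacna1e at 0.869%. With those positions set aside, the rest of Cacna1c averaged 45.9%, of Cacna1d 52.5% and of Cacna1e 46.7%.

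**Figure D2:**
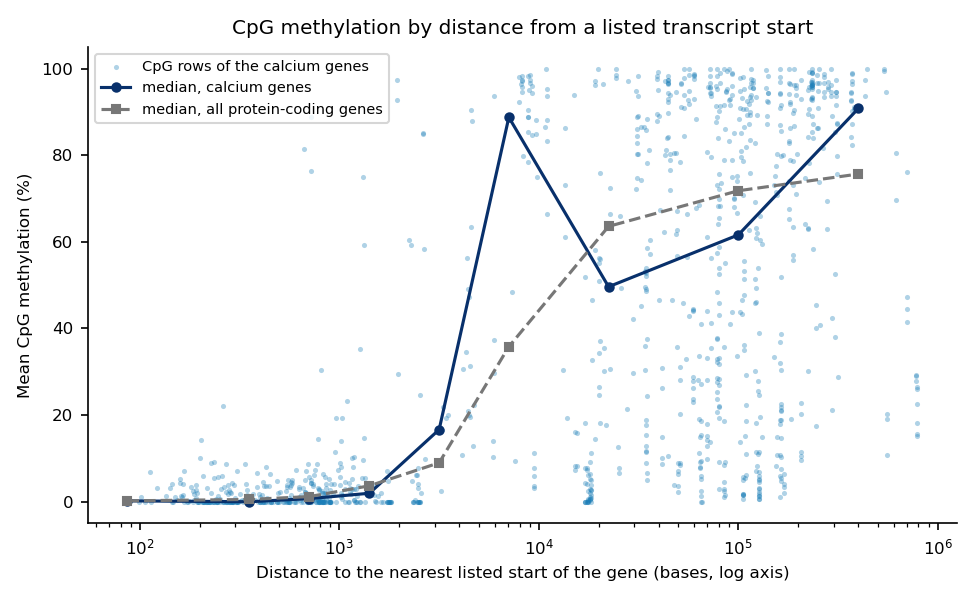
CpG methylation (y axis, mean percent over 15 mice) against the distance to the gene's nearest listed start (x axis, bases on a log axis). Dots are the positions of the 25 calcium genes with a listed start, circles their median per distance bin and squares the median of all protein-coding genes. The median of the calcium genes is 0.202% under 250 bases and 1.96% from 1000 to 2000 bases, and it reaches 88.8% from 5000 to 10000 bases in a bin of 37 positions from 8 genes.

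Among the pore subunits, body methylation averaged 39.3% over 443 positions and end methylation 6.51% over 68. The highest body means belonged to Cacna1b, the N-type channel of presynaptic terminals, at 70.0%, and to the T-type genes Cacna1g at 67.0% and Cacna1i at 64.5%. The lowest belonged to Cacna1h, another T-type gene, at 16.9%, where 17 of 21 body positions were under 20%. The measured ends of Cacna1b and Cacna1s (the L-type channel of skeletal muscle), all at 5′ positions, averaged 1.20% and 0.998%. Cacna1a (the P/Q-type channel) averaged 0.643% over 5 end positions at chr8:84639225-84639280. They lie at 1 boundary of a gene with no strand listed, so that end was not called 5′ or 3′. All 12 measured end positions of Cacna1s also lie within 2 kb of Ascl5, so they cannot be told apart from the start of that neighbour. Cacna1c and Cacna1d encode the L-type channels of brain and heart, and Cacna1e the R-type channel. Their bodies averaged 32.7%, 42.1% and 39.3% over all measured positions.

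Values by mouse are given for bodies with at least 3 positions measured in all 15 mice, which are fewer positions than in the means above. The Cacna1a body (14 such positions) was at 20.7%, 20.3%, 16.9%, 14.3% and 23.6% in standard mice 1 to 5, at 22.1%, 17.1%, 17.6%, 27% and 17.1% in enriched mice, and at 20.6%, 15.7%, 18.7%, 18.6% and 21.6% after withdrawal. The Cacna1c body (31 positions) stood at 48.0%, 51.6%, 39.9%, 47.2% and 56.0% in standard, 45.1%, 49.0%, 49.9%, 51.9% and 54.2% in enriched, and 49.5%, 45.9%, 50.9%, 45.0% and 53.3% after withdrawal. The 3 groups overlapped in both genes. The Cacna1d body (18 positions) was at 49.7%, 48.2%, 51.1%, 50.9% and 52.5% in standard, 48.3%, 47.2%, 46.2%, 50.7% and 52.2% in enriched, and 51.3%, 55.9%, 46.7%, 47.3% and 50.3% after withdrawal. The Cacna1e body (26 positions) was at 30.2%, 19.7%, 20.8%, 25.1% and 28.5% in standard, 22.8%, 19.0%, 28.0%, 24.0% and 22.1% in enriched, and 19.9%, 28.5%, 13.8%, 21.9% and 25.9% after withdrawal. Cacna1d was the tightest of these bodies in standard mice (SD 1.60), and the 3 groups of each gene overlapped. The 3 complete positions of the Cacna1b body were at 37.1%, 44.0%, 55.4%, 73.9% and 48.5% in standard, 51.3%, 43.6%, 46.1%, 46.1% and 52.9% in enriched, and 54.3%, 57.4%, 31.1%, 42.1% and 34.4% after withdrawal. The choice of positions matters for Cacna1h, whose 3 complete body positions averaged 85.9% beside the 16.9% of all 21.

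The alpha2delta subunits, which carry the binding site of gabapentin in Cacna2d1 and Cacna2d2, had the lowest mean over end positions of the families. Their 69 end positions averaged 1.8%, and all 69 were under 20%. Of the 69, 68 were at a 5′ end, while the other families also pooled 3′ ends or ends with no strand listed. At 5′ ends alone the alpha2delta subunits averaged 1.73%. The pore subunits averaged 1.32% there and the CaM kinases 0% over 7 positions of 1 gene, with the other families higher. The bodies averaged 55.1% over 181 positions, led by Cacna2d1 at 91.0%, where 23 of 26 positions were above 80%. Cacna2d2, Cacna2d3 and Cacna2d4 had body means of 49.6%, 50.6% and 45.6%. Cacna2d3 had the most end positions of the 36 genes, 52, all at its 5′ end and at 1.70% on average. Of the 30 body positions of Cacna2d4, 18 lie within 2 kb of Lrtm2 and averaged 25.02%. By mouse, the Cacna2d2 body (13 complete positions) was at 53.3%, 45.6%, 45.6%, 56.8% and 41.8% in standard, 51.4%, 34.3%, 47.2%, 43.0% and 47.9% in enriched, and 49.0%, 50.3%, 41.0%, 46.7% and 46.0% after withdrawal. The Cacna2d3 body (8 complete positions) was at 24.8%, 20.8%, 27.5%, 20.2% and 31.5% in standard, 24.2%, 19.2%, 25.1%, 16.7% and 21.7% in enriched, and 23.4%, 18.6%, 20.8%, 25.5% and 22.1% after withdrawal. The groups overlapped in both genes.

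The beta subunits sit on the cytoplasmic side of the channel and bring the pore to the membrane. Cacnb3 stood apart from the other 3 genes, with a body mean of 9.32% over 44 positions against 39.9% for Cacnb1, 59.3% for Cacnb2 and 60.1% for Cacnb4. In Cacnb3, 31 positions lie within 1 kb of a listed start and averaged 2.63%, and the printed window belongs to its internal start. Its 3′ end held neighbouring stretches of opposite level. The 5 positions at chr15:98642978-98643040 averaged 96.7%, and 5 positions further on, at chr15:98644172-98644263, averaged 6.31% and lie within 2 kb of the neighbouring gene Ddx23. The 8 complete body positions of Cacnb3 were at 7.34%, 1.11%, 0.961%, 0.798% and 3.04% in standard, 1.87%, 1.05%, 0.373%, 3.25% and 7.02% in enriched, and 0.718%, 1.12%, 1.76%, 1.68% and 1.36% after withdrawal. Standard mouse 1 and enriched mouse 5, the mouse of each of those groups with the fewest positions, were the 2 above 7%. The Cacnb2 body (3 complete positions) was at 41.2%, 36.2%, 34.7%, 38.6% and 36.6% in standard, 42.4%, 33.3%, 40.3%, 59.5% and 33.3% in enriched, and 33.8%, 38.4%, 36.3%, 36.4% and 35.5% after withdrawal. The groups overlapped in both genes.

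The Cacng genes split by level. Cacng8, which encodes an AMPA receptor auxiliary protein (TARP) abundant in hippocampus, had 38 body positions at 7.57% on average, 35 of them under 20%. None lay within 1 kb of a listed start of the gene, and the nearest position of its complete cluster was 17569 bases from it. Cacng5 was at 95.2% over 7 body positions and Cacng2, the TARP known as stargazin, at 79.2% over 12. Cacng3, Cacng4, Cacng6 and Cacng1 had body means of 20.7%, 45.6%, 19.4% and 41.2%, over 2 to 5 positions each. Cacng7 had 49 positions at its ends, with 32 at the 5′ end averaging 1.39% and 17 at the 3′ end averaging 33.9%. The 4 complete body positions of Cacng8 were at 0.714%, 1.60%, 1.12%, 2.24% and 0.943% in standard, 0.758%, 0%, 0.325%, 0.926% and 0% in enriched, and 3.03%, 0.317%, 0%, 0.647% and 1.09% after withdrawal. The groups overlapped, and the highest value of the 15 belonged to a withdrawal mouse.

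The release channels had the most methylated bodies of the families. Ryanodine receptors averaged 72.6% in their bodies, with Ryr2 (the cardiac and main brain form) at 79.4%, Ryr3 at 77.0% and Ryr1 (the skeletal muscle form, also expressed in neurons) at 67.3%. IP3 receptors averaged 73.6% over 98, from 57.8% in Itpr1, the main neuronal form, to 83.9% in Itpr2 and 95.1% in Itpr3, where all 8 body positions were above 80%. Low and high positions lay near the same boundary in Ryr1, Itpr3 and Ryr3. No position was measured between the low and the high ones, so how sharply the level changes is unknown. The end positions of Itpr1 and Itpr2 showed no such contrast, with highest values of 21.2% and 8.81%, and Ryr2 had no end positions. In Ryr1, 6 positions between 122 and 190 bases inside the listed start were at 0.758% to 4.43%, and 3 positions 668 to 723 bases before it were at 76.5% to 88.8%. In Itpr3, 15 positions at chr17:27057077-27057462 averaged 0.834%, and 2 positions 1943 and 1947 bases before the listed start were at 92.8% and 97.3%. One boundary of Ryr3 had 17 positions averaging 2.81% at chr2:113216286-113216698 and 4 averaging 95.6% at chr2:113219129-113219359.

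The CaM kinases averaged 51.5% over 85 body positions. Camk2d and Camk2g were at 74.5% and 74.9%, Camk2a and Camk2b, the 2 main CaMKII subunits of forebrain synapses, at 38.6% and 29.98%. All 7 measured 5′ positions of Camk2b were at 0% in every mouse with a value. Camk4, a nuclear kinase that acts on CREB, had the highest mean at gene ends of the 28 genes measured there, with 4 end positions at 96.3% on average, 3 of which also lie within 2 kb of Stard4. An end mean of at least 20% was found in 9 of the 28 calcium genes, and in 3928 of all 14253 genes with end positions (27.6%). Some of the 9 rest on few positions, such as Cacng2 and Cacng8 with 1 each. The 3 Camk4 positions near Stard4 were at 83.3%, 95.2%, 100%, 95.6% and 91.3% in standard, 91.9%, 91.9%, 100%, 95.9% and 100% in enriched, and 100%, 93.3%, 100%, 97.3% and 99.6% after withdrawal. The 6 complete body positions of Camk4 formed 1 unmethylated cluster, at 0%, 0.388%, 2.55%, 2.38% and 0% in standard, 1.24%, 0%, 0%, 6.67% and 0% in enriched, and 4.21%, 0.347%, 0%, 0.741% and 0% after withdrawal, while all 19 body positions of the gene averaged 65.7%. The Camk2b body (5 complete positions) was at 34.5%, 39.8%, 49.9%, 30.1% and 44.6% in standard, 58.1%, 59.0%, 48.2%, 43.2% and 29.8% in enriched, and 42.2%, 52.2%, 58.9%, 47.2% and 44.2% after withdrawal. Its group means were 39.8% ± 7.85, 47.7% ± 12.0 and 49.0% ± 6.73 (SD, n = 5 each), and the groups overlapped.

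Averaged over the calcium genes, the housing groups differed by less than the SD between mice. The mean over genes of positions with a value in all mice was 44.9% ± 2.45 in standard, 45.1% ± 1.84 in enriched and 44.7% ± 0.788 after withdrawal (SD, n = 5 each). All genes measured the same way gave 38.1%, 38.3% and 38.7%. By family, the pore subunits were at 45.1% ± 3.45, 45.1% ± 2.49 and 42.9% ± 2.87, and the ryanodine receptors at 68.4% ± 3.55, 71.6% ± 3.85 and 71.8% ± 3.38. The CaM kinases were at 63.4% ± 4.41, 66.2% ± 3.73 and 66.0% ± 3.82. The beta subunits were at 8.73% ± 1.74, 9.19% ± 2.32 and 8.52% ± 0.811. In each of the 7 families the ranges of the 3 groups overlapped.

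Housing was then compared position by position and region by region. Percentages were turned into log2((percent + 5)/(100 - percent + 5)) and compared by limma over all features of a kind in the series, with Benjamini-Hochberg adjustment, and features with an adjusted p under 0.05 count as called. Among the calcium genes the tests covered 267 single positions, 36 clusters (at least 3 complete positions with gaps of at most 200 bases), 23 bodies, 7 5′ ends, 1 3′ end and 10 ends of either kind. None was called in any of the 3 comparisons. Over all features, 2 of 4002 bodies were called between enriched and standard mice (0.05%), neither of them a calcium gene, and 0% of the other kinds and comparisons.

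**Figure D3:**
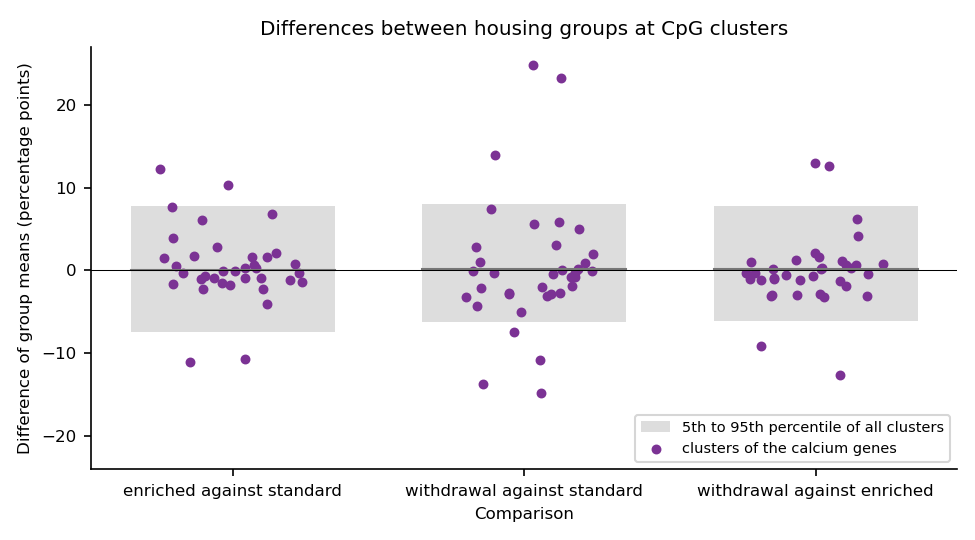
Differences of group means (y axis, percentage points) at the 36 clusters of the calcium genes (points) in the 3 comparisons (x axis), with the 5th to 95th percentile of all 15894 clusters as a grey band and their median as a line. By its definition the band leaves out 5% of all clusters on each side. Of the 36 points, 4 (11.1%) lie outside it for enriched minus standard mice. The counts are 7 (19.4%) for withdrawal minus standard and 4 (11.1%) for withdrawal minus enriched. Whether these shares differ from that of all clusters was not tested. The highest point is a Cacna1c cluster, 24.9 points higher in withdrawal than in standard mice.

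Enriched against standard mice asks what 6 months of enrichment did. The lowest p among the bodies belonged to Ryr1, which was higher in enriched mice by 6.42 points, and that among the 5′ ends to Cacng7, higher by 1.48 points. A single position in Itpr1 was lower by 33.0 points. None of these passed the adjustment over all features. At an unadjusted p under 0.05 by limma there were 12 of 267 positions (4.49%, background 5.15%), 0 of 36 clusters (background 5.57%), 1 of 23 bodies (4.35%, background 6.25%), 1 of 7 5′ ends (background 5.29%), 0 of 10 ends of either kind (background 5.59%) and 0 of 1 3′ end (background 4.44%). The median difference was 0.0587 points over the 23 bodies and 0.189 over all bodies, and -0.0678 over the 36 clusters and 0.0573 over all clusters.

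The Ryr1 body rests on 13 positions measured in every mouse. Standard mice were at 74.4%, 61.6%, 62.9%, 63.9% and 64.2%, enriched mice at 74.1%, 67.1%, 74.3%, 70.9% and 72.7%, and withdrawal mice at 76.9%, 77.4%, 73.8%, 72.2% and 76.9%. Standard mouse 1 lay among the enriched and withdrawal mice, and the other 4 standard mice lay below all 10 of them. Group means were 65.4% ± 5.11, 71.8% ± 2.97 and 75.4% ± 2.31 (SD, n = 5). Enriched exceeded standard by a log2 ratio of 0.38 ± 0.16 (SE; limma adjusted p = 0.766). Withdrawal exceeded standard by 10.03 points and a log2 ratio of 0.61 ± 0.16 (limma adjusted p = 0.508), and exceeded enriched by 3.61 points (limma adjusted p = 0.997). Without standard mouse 1, the mouse with the most missing positions, the difference of withdrawal and standard was 12.3 points (limma adjusted p = 0.126). The difference was smaller at the positions with missing values. Among the 13 positions 10 were higher in withdrawal than in standard mice and 3 lower, with a mean difference of 10.03 points, while among the 42 other body positions 17 were higher and 21 lower, with a mean difference of 1.21 points. With all body positions, each centred on its mean, withdrawal minus standard was 2.51 points (limma adjusted p = 0.999) and enriched minus standard 1.36 points (limma adjusted p = 0.978).

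A pair of clusters made up 9 of those 13 positions. At chr7:29052589-29052641, inside Ryr1 and 72510 bases from the listed start, 4 minus-strand positions were at 41.1%, 17.2%, 19.3%, 22.2% and 27.9% in standard, 45.8%, 23.9%, 49.0%, 31.8% and 28.6% in enriched, and 45.7%, 48.4%, 59.1%, 40.2% and 50.9% after withdrawal. Standard mouse 1 again lay inside the withdrawal range and the other 4 standard mice below it. The mean was 25.5% ± 9.60 in standard, 35.8% ± 10.99 in enriched and 48.8% ± 6.97 after withdrawal. Withdrawal was higher than standard by 23.3 points, a log2 ratio of 1.36 ± 0.39 (SE; limma adjusted p = 0.991), and higher than enriched by 13.02 points (limma adjusted p = 0.998). All 4 positions were higher in withdrawal than in standard mice, by 37.7, 31.7, 14.2 and 9.74 points in order along the chromosome. The first of them was at 50%, 13.9%, 2.08%, 19.1% and 38.0% in standard, 44.1%, 18.9%, 58.6%, 38.3% and 24.1% in enriched, and 73.6%, 46.0%, 88.2%, 55.3% and 48.3% after withdrawal (withdrawal against standard, limma adjusted p = 0.961). The other cluster, at chr7:29093896-29093965, was near full methylation, with 95.3%, 83.8%, 81.3%, 85.2% and 79.7% in standard, 89.2%, 92.8%, 91.2%, 90.4% and 95.5% in enriched, and 91.5%, 92.5%, 82.1%, 92.8% and 94.6% after withdrawal. Enriched exceeded standard there by 6.77 points (limma adjusted p = 0.867), and the groups overlapped through standard mouse 1. By position, withdrawal minus standard ran from -1.81 to 12 points in that cluster. The body difference of 10.03 points between withdrawal and standard thus came in large part from the 4 neighbouring positions of the first cluster.

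**Figure D4:**
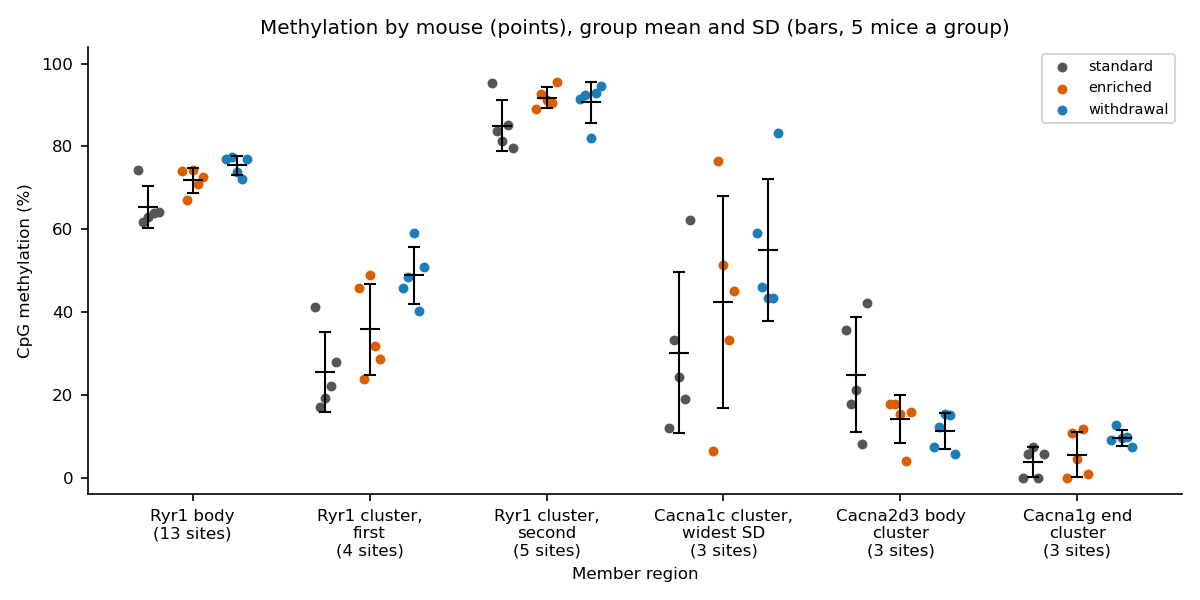
CpG methylation (y axis, percent) of 6 regions (x axis) in each of the 15 mice (points, coloured by housing group), with the group mean and SD as black bars (5 mice a group). In the Ryr1 body and the first Ryr1 cluster 4 of 5 standard mice lie below all withdrawal mice, and the Cacna1c cluster has the widest spread, with an SD of 17.1 to 25.6 points within a group.

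At the 5′ end of Cacng7, a TARP of several brain regions, 6 positions at chr7:3333211-3333280 were at 0% in all 5 standard mice. Enriched mice were at 0%, 3.23%, 2.98%, 1.19% and 0% and withdrawal mice at 0%, 2.08%, 0%, 0.549% and 1.59%. Enriched exceeded standard by 1.48 points, a log2 ratio of 0.36 ± 0.16 (limma adjusted p = 0.862), the groups overlapped at 0%, and with all positions of the 5′ end centred the difference turned to -0.872 points. The 3′ end of Cacng7 (8 positions) was at 30.2%, 32.0%, 32.6%, 26.3% and 26.6% in standard, 37.6%, 20.3%, 28.0%, 25.8% and 24.7% in enriched, and 18.9%, 33.7%, 31.6%, 24.2% and 28.9% after withdrawal, and its groups overlapped. It differed by -2.26 points for enriched minus standard, by -2.07 for withdrawal minus standard and by 0.193 for withdrawal minus enriched (limma adjusted p = 0.932, 0.936 and 0.998).

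A body position of Itpr1 at chr6:108238343 (minus strand) was the single position with the smallest p in this comparison. It stood at 72.7%, 50.8%, 38.2%, 42.9% and 69.2% in standard, 24.4%, 23.1%, 16.2%, 17.3% and 28.0% in enriched, and 16.7%, 58.8%, 25.6%, 37.2% and 30% after withdrawal. Every enriched mouse was below every standard mouse, and the withdrawal mice spanned both groups (log2 ratio of enriched to standard -1.92 ± 0.62, limma adjusted p = 0.817). The position was picked by its p in these same mice, and the share of all positions that separate in this way is not given here. In Ryr3, the position at chr2:112788921 (minus strand) was at 43.8%, 88.1%, 76.9%, 100% and 75% in standard, 100%, 96.0%, 100%, 100% and 100% in enriched, and 72.1%, 53.2%, 85.7%, 97.1% and 88.9% after withdrawal. Enriched mice were highest on average, with 1 standard mouse at 100% as well, by 22.4 points against standard (limma adjusted p = 0.837), or 14.2 points without standard mouse 1, and by 19.8 points against withdrawal (limma adjusted p = 0.976). The Cacna1a cluster at chr8:84363807-84363875 was at 0% in 4 standard mice and 0.488% in standard mouse 2. Enriched mice were at 0%, 4.90%, 0%, 15.1% and 0% and withdrawal mice at 4.17%, 0.781%, 0.741%, 4.87% and 3.85%. Withdrawal exceeded standard by 2.78 points on average (limma adjusted p = 0.991). The groups did not overlap, but the margin was narrow and near 0%, with a lowest withdrawal mouse at 0.741% and a highest standard mouse at 0.488%. Enriched exceeded standard by 3.90 points (limma adjusted p = 0.868), which was 1.13 points without enriched mouse 4. The 7 5′ positions of Cacna2d3 were at 0%, 8.96%, 3.34%, 2.60% and 1.61% in standard, 0%, 1.54%, 2.24%, 0.651% and 0% in enriched, and 0%, 0.942%, 4.48%, 0% and 1.06% after withdrawal (enriched minus standard -2.42 points, limma adjusted p = 0.862). Without standard mouse 2 the difference was -1.002 points.

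Withdrawal against standard mice asks what was different 3 months after enrichment had ended. The Ryr1 body and cluster given above had the smallest p of their kinds, followed among the clusters by Cacna1g, which was higher, and Cacna2d3, which was lower. Counts at an unadjusted p under 0.05 by limma were 12 of 267 positions (4.49%, background 4.42%), 3 of 36 clusters (8.33%, background 4.87%), 1 of 23 bodies (4.35%, background 4.95%), 0 of 7 5′ ends (background 4.83%), 1 of 10 ends of either kind (background 5.05%) and 0 of 1 3′ end (background 5.82%). Of the 23 bodies, 17 were lower after withdrawal and 6 higher, and the median difference was -0.571 points. Over all bodies 58.3% were higher, with a median of 0.540 points. Of the 36 clusters, 23 were lower and 13 higher (median -0.355 points; all clusters 0.228). Shares of this kind were not tested, since neighbouring genes and positions share the same 10 mice.

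The Cacna1g cluster, 3 positions at chr11:94475600-94475640 within 2 kb of a boundary of this T-type channel gene, was at 0%, 5.70%, 7.46%, 0% and 5.76% in standard, 0%, 10.7%, 4.53%, 11.7% and 0.901% in enriched, and 9.15%, 12.7%, 9.50%, 9.78% and 7.32% after withdrawal. Of the 5 withdrawal mice, 4 were above all standard mice and 1 was below the highest of them. The difference of 5.90 points (log2 ratio 0.93 ± 0.40, limma adjusted p = 0.991) turned to -0.455 points with all 34 end positions of the gene centred. Withdrawal exceeded enriched there by 4.12 points (limma adjusted p = 0.998), by 2.72 points without enriched mouse 1, and by 0.604 points with all end positions centred. The Cacna2d3 cluster at chr14:29164950-29165117, deep in the gene, was at 35.6%, 17.7%, 21.1%, 8.05% and 42.1% in standard, 17.9%, 17.9%, 15.5%, 3.97% and 15.8% in enriched, and 7.41%, 12.4%, 15.5%, 15.2% and 5.84% after withdrawal. The mean was 24.9% ± 13.8, 14.2% ± 5.82 and 11.3% ± 4.43, with a log2 ratio of withdrawal to standard of -1.03 ± 0.47 (limma adjusted p = 0.991). The groups overlapped, and standard mice spread the most. At the 5′ end of Itpr2, 4 positions were at 12.2%, 0.339%, 0%, 9.73% and 3.75% in standard, 0%, 0%, 2.87%, 12.6% and 5% in enriched, and 0%, 0.806%, 0%, 2.38% and 1.47% after withdrawal. Withdrawal minus standard was -4.27 points (limma adjusted p = 0.932), and -2.52 points without standard mouse 1, and the groups overlapped at 0%. The Ryr3 position at chr2:113083112 (minus strand) was at 81.8%, 25%, 79.5%, 72.2% and 80% in standard, 63.8%, 100%, 85.4%, 100% and 89.9% in enriched, and 100%, 100%, 100%, 84.6% and 88.6% after withdrawal. Every withdrawal mouse was above every standard mouse (log2 ratio 2.52 ± 0.80, limma adjusted p = 0.961). That position was likewise picked by its p, without the share of all positions that separate in this way. The difference was 26.9 points, and 16.2 points without standard mouse 2.

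A Cacna1c cluster at chr6:118737832-118737866 had the widest spread of the clusters with an intermediate level. It was at 12.1%, 33.3%, 24.2%, 19.1% and 62.1% in standard, 6.38%, 76.4%, 51.3%, 33.3% and 45.0% in enriched, and 59.2%, 46.0%, 43.4%, 43.3% and 83.3% after withdrawal. Withdrawal exceeded standard by 24.9 points (log2 ratio 1.52 ± 0.76, limma adjusted p = 0.991), with standard mouse 5 among the withdrawal mice. The tightest such cluster was in Cacna1d, at chr14:30283696-30283743, with 53.0%, 51.9%, 53.2%, 50.7% and 52.0% in standard, 45.6%, 42.1%, 49.2%, 56.6% and 58.6% in enriched, and 51.3%, 51.8%, 39.9%, 50.3% and 53.3% after withdrawal. The 5 standard mice of Cacna1d lay between 50.7% and 53.2%, and the other groups spread on both sides of them.

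Withdrawal against enriched mice sets 3 months of enrichment followed by 3 months in standard cages beside 6 months of enrichment. The end of enrichment and its shorter length cannot be told apart in this comparison. All mice were aged 7.5 months, so none was sampled when enrichment ended. The 5 single positions with an unadjusted p under 0.05 by limma (1.87% of 267, background 4.30%) were all lower after withdrawal. No cluster (background 4.38%), body (background 3.97%), 5′ end (background 5.32%), 3′ end (background 6.13%) or end of either kind (background 5.29%) had an unadjusted p under 0.05. A position in the body of Cacna1s at chr1:136106238 (plus strand) had the smallest p of the positions (limma adjusted p = 0.976). It stood at 100% in 4 standard mice and 64.5% in standard mouse 5, at 100%, 100%, 94.4%, 100% and 100% in enriched mice, and at 79.0%, 97.7%, 75%, 87.4% and 64.2% after withdrawal. Withdrawal was 18.2 points below enriched there, and the groups overlapped through the withdrawal mouse at 97.7%. Another Cacna1c cluster, at chr6:118856021-118856093, was at 60.0%, 67.5%, 53.7%, 65.7% and 72.2% in standard, 45.2%, 60.1%, 51.9%, 70.0% and 80.8% in enriched, and 59.7%, 40.0%, 32.2%, 56.2% and 56.8% after withdrawal. Withdrawal minus enriched was -12.7 points (limma adjusted p = 0.998), and -7.85 points without enriched mouse 5, and the groups overlapped. The 5′ end of Cacng3, a TARP of forebrain, was at 9.18%, 4.92%, 0.702%, 1.98% and 0.370% in standard, 1.02%, 0%, 4.63%, 3.01% and 9.88% in enriched, and 0%, 2.31%, 2.04%, 0.746% and 1.03% after withdrawal, a difference of -2.48 points between withdrawal and enriched (limma adjusted p = 0.979). That difference was -0.937 points without enriched mouse 5 and -0.224 points with all positions of the 5′ end centred. Each pair of the 3 comparisons shares a group of mice, so their values stand side by side here and are not independent of each other.

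The spread over all 15 mice, with the 3 groups pooled, was widest where methylation was intermediate. The median of that SD was 18.6 points at the 79 complete positions between 20% and 80%, 6.00 points at the 139 positions under 20% and 9.20 points at the 80 positions above 80%. Over all CpG positions the same medians were 17.6, 4.98 and 7.41 points. Of the 36 clusters, 18 (50%) were under 20%, 9 (25%) between 20% and 80%, and 9 (25%) above 80%. Over all 15894 clusters the same shares were 46.5%, 19.2% and 34.2%. Of the 18 clusters under 20%, 9 lay in gene bodies, in Cacna1a, Cacna1e, Cacna2d2, Cacna2d3, Cacnb3, Cacng8 and Camk4.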

How the data were processed

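Reduced representation bisulfite sequencing libraries came from 15 samples, each taken as 1 mouse. The labels number the samples within a group and do not say that each is a separate animal, so p-values measure the spread between these samples. Per the submitters' processing notes, the authors used Trim Galore 0.4.0, cutadapt 1.8.1, Bismark 0.16.1, methylKit 1.5.2 and genome build mm10, and they deposited 1 percent methylation value for each cytosine and mouse, without read counts. Depth, coverage minimum and filters are not given in the sources used here, so no counting interval was computed.

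The rows before the chromosome column restarts were taken as CpG positions. Of those inside a listed promoter window, 47320 of 47320 lay on the C of a CG. Gene boundaries and promoters came from RefSeq tables of GRCm38.p6, with no exons. A strand was listed for 25 of the 36 genes, so ends of both boundaries pooled were added, after the reference was seen, for the rest. Regions needed at least 3 positions with values in all 15 mice, and single positions a range of at least 5 points. limma 3.58.1 in R 4.3.3 fitted 3 group means with Benjamini-Hochberg adjustment over all features of a kind, outside chrY and chrM, checked first on simulated data. Values by mouse are printed for the regions of each kind with the smallest p in each comparison (1 body and end, 3 clusters, 2 positions), for bodies and 3′ ends under 50%, and for the clusters of largest and smallest SD between 20% and 80%. Gene ends of at least 20% are included, which adds the Camk4 end. The members, lists and rules were chosen with earlier results of these data known. Alternatives were another offset (1 in place of 5), the percent scale, a 1 kb window, 5 positions per region, positions with missing values, a replicate block, the 2 groups alone, and leaving out mice.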

Additional observations from a re-analysis of the deposited data

Results flagged for a closer look

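In 108 groups of 5 mice, each taken at a region or measure reported above, the highest or lowest mouse was compared with the other 4. In 14 of them that mouse lay far from the rest, with a gap of over 0.71 of the group's range. Chance gives this in about 1 group in 20 of continuous values. That rate does not hold where the other 4 mice are tied at 0% or 100%, as in 4 of the 14. Many of the regions were also chosen by their values in these same data. Whether the 14 exceed that rate was therefore not tested.

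In the Ryr1 body, standard mouse 1 was at 74.4% and the other 4 standard mice at 61.6% to 64.2%. In the Ryr1 cluster at chr7:29093896-29093965, withdrawal mouse 3 was at 82.1%, below 91.5% to 94.6% in the others. The Ryr3 position at chr2:113083112 was at 25% in standard mouse 2 and 72.2% to 81.8% in the other standard mice, and the one at chr2:112788921 was at 96.0% in enriched mouse 2 and 100% in the other enriched mice. The Cacna1a cluster at chr8:84363807-84363875 was at 0.488% in standard mouse 2 and 0% in the others. The Cacna1s position at chr1:136106238 was at 64.5% in standard mouse 5 and at 94.4% in enriched mouse 3, with 100% in the other 4 mice of each group.

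The Cacna2d3 cluster at chr14:29164950-29165117 was at 3.97% in enriched mouse 4 and 15.5% to 17.9% in the others, and the end of that gene at 4.48% in withdrawal mouse 3 and 0% to 1.06% in the others. The Cacna1d cluster at chr14:30283696-30283743 was at 39.9% in withdrawal mouse 3, below 50.3% to 53.3%. The Camk4 body was at 6.67% in enriched mouse 4 (0% to 1.24% in the others) and at 4.21% in withdrawal mouse 1 (0% to 0.741%). The mean over the calcium genes was 40.7% in standard mouse 2, below 45.1% to 46.5% in the other standard mice, and 46.1% in withdrawal mouse 2, above 44.1% to 44.6%.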

How the results depend on the processing

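Under each of up to 24 settings, none of the 18 counts of called calcium gene features moved from 0, and the smallest adjusted p was 0.126, for bodies in withdrawal against standard mice without standard mouse 1. The replicate block also gave 0 called, and same-numbered mice did not deviate together (correlations -0.0179 to 0.0192, with 3 of 15 mice closest to their own number), so the numbers were not taken as pairs. Mean methylation over the calcium genes changed sign with 1 mouse left out (-0.947 to 0.703 points for enriched minus standard, -0.945 to 0.282 for withdrawal minus enriched, -1.31 to 0.145 for withdrawal minus standard). With all mice kept, the SD between mice was 2.45 points in standard, 1.84 in enriched and 0.788 after withdrawal. Other values that changed direction were the number of positions with a value, enriched minus standard (-72.3 to 32 with 1 mouse left out), the Cacng7 5′ end, enriched minus standard (-0.872 points with all positions centred), and the Cacna1g end, withdrawal minus standard (-0.455 points, centred). The Cacng7 3′ end ran from -3.62 to 0.0714 points for withdrawal minus standard with 1 mouse left out. For withdrawal minus enriched it ran from -1.56 to 2.78 points, and was -0.437 with standard mouse 1 and enriched mouse 5 left out, -2.20 centred and -5.31 with a 1 kb window. The cause was not tested. The Ryr1 body difference fell from 10.03 to 2.51 points when positions with missing values entered. Unknown depth limits single positions most.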

Other observations

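Other genes that handle calcium, were listed with earlier results known. CpG positions were found for 46 of 49 such genes, and the median mean was 5.06% at gene ends and 65.9% in bodies, beside body medians of 50.1% for the 36 genes and 69.2% for all genes, a difference that was not tested. None of the 15 bodies or 15 gene ends tested was called by limma. Without adjustment, the body of Stim1, the calcium sensor of the endoplasmic reticulum, was 11.5 points higher in enriched than in standard mice (limma adjusted p = 0.720). The end of Camk1d, a cytosolic CaM kinase, was 3.52 points higher in withdrawal than in standard mice (limma adjusted p = 0.754). The body of Jph2, which ties the endoplasmic reticulum to the cell membrane, was 21.1 points lower in withdrawal than in enriched mice (limma adjusted p = 0.997). Of 24 marker genes of dentate cell types 19 had positions, and none was called. The 5′ end of Prox1, which marks granule neurons, was 3.33 points lower in enriched than in standard mice over the positions with a value in every mouse (limma adjusted p = 0.808). Over all 30 of its end positions the means were 1.36% in standard and 0.697% in enriched mice. The other granule neuron genes with end positions went the other way. Neurod1, Dsp and C1ql2 were at 0.0571%, 2.35% and 0.337% in standard and 1.67%, 4.88% and 0.707% in enriched mice. In withdrawal against enriched mice, the Gad2 5′ end was 4.45 points higher (limma adjusted p = 0.877) and the Olig2 3′ end 9.11 points higher (limma adjusted p = 0.720), over positions with a value in every mouse. Over all end positions, Gad2 was at 3.17% in enriched and 7.02% in withdrawal mice, and Olig2 at 2.94% and 4.605%. Gad1 and Mbp, markers of the same 2 cell types, went the other way. Gad1 was at 6.68% in enriched and 4.35% in withdrawal mice, and Mbp at 6.01% and 4.94%.

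Methylation outside CpG, which is common in mature neurons, was low in the calcium genes. They held 8069 such positions, and those with values in all mice averaged 0.871% ± 0.131 in standard, 0.823% ± 0.185 in enriched and 0.844% ± 0.0477 after withdrawal (SD, n = 5 each). Over all positions the means were 0.943%, 0.928% and 0.933%. A mean of at least 10% was reached by 50 of the 8069 positions (0.620%; 0.659% of all such positions). Cacna2d2 held 11 of the 50, including the highest at 29.1%, and Camk2d and Itpr1 held 6 each, with Camk2d having the highest gene mean at 1.97%.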
